A study of Mus musculus with 6 samples.

Results

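The regions described here were 3172 short peaks of H3K27me3, the trimethyl mark on lysine 27 of histone H3, that lay between genes in control mouse neural stem cells (NSC). They were chosen from the peak list of the NSC ChIPSeq library by position and length. A peak was taken if it was on one of the 19 autosomes, was shorter than 4000 bp, overlapped no protein-coding gene body and lay more than 5 kb from every annotated transcription start site (TSS) of any biotype in GENCODE vM21. The list held 12982 peaks, of which 9430 were autosomal, so that 3172 intergenic peaks were described beside 3296 peaks within 5 kb of a coding TSS (coding promoter peaks), 805 within 5 kb of a noncoding TSS, 1742 further inside coding genes (intragenic peaks) and 415 domains of 4000 bp or longer (broad domains). Because peaks enter such a list only by their enrichment, the fold, length and q values below are descriptions of what chose them. The study set glioma-initiating cells, not analysed here, against NSC with a basal or a raised level of Bmi1, and the control NSC and NSC Bmi1Over are set side by side here. NSC came from wild-type embryos, and NSC Bmi1Over from STOPFloxBmi1;NestinCre embryos, in which Cre driven by Nestin removes a stop cassette in front of a Bmi1 transgene in neural progenitors. Per the methods of the study, embryos of both genotypes were taken at the same embryonic stage. For H3K27me3, ChIP was done on 2 cultures per genotype, and per the methods of the study 1 was kept for each after checks of read number and quality, so there is 1 peak list per genotype. RNA was measured in 2 cultures per genotype.

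H3K27me3 is placed by Polycomb repressive complex 2 (PRC2) through its catalytic subunit Ezh2 or Ezh1, and it is read by Polycomb repressive complex 1 (PRC1), to which Bmi1 belongs. In neural stem cells the mark covers developmental regulators that are silent in the lineage, such as the Hox clusters, and it is best known from CpG islands at promoters. It also spreads outward from such sites at lower density, and it can lie over long stretches without genes, where enhancers, repeats and unannotated transcripts are found.

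The sequences of 8 intergenic peaks are shown, as examples of base composition among the strongest peaks and in the largest clusters. They do not cover its full range. Each run is the plus strand of GRCm38.p6 over up to 300 bases around the centre of the peak, from the 5′ end, in lower case with every CG dinucleotide in capitals. The first 3 had among the highest fold enrichment of all intergenic peaks and lay at chr12:3109837-3110136, chr9:24541952-24542251 and chr6:3201346-3201645.
Rab10-side peak: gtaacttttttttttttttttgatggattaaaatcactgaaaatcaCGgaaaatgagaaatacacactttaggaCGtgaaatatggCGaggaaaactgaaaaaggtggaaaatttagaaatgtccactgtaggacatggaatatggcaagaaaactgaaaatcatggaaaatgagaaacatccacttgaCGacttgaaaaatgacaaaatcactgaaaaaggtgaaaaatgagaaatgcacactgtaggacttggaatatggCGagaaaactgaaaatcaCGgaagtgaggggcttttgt
Dpy19l1-side peak: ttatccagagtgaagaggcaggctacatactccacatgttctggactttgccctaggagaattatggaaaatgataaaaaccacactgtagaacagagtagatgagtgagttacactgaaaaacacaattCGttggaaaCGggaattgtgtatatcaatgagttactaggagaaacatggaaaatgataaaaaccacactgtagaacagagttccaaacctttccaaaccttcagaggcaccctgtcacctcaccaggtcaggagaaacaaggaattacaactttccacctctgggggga
Samd9l-side peak: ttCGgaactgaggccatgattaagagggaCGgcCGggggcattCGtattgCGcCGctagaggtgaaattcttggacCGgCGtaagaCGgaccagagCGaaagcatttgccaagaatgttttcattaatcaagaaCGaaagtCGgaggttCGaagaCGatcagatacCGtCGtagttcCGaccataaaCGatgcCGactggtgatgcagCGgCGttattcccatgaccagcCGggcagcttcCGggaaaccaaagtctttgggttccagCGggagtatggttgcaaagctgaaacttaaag
The next 4 were the highest-fold peaks of 4 of the 5 largest clusters of intergenic peaks, at chr4:120253942-120254196, chr13:94912771-94913070, chr6:100135856-100136155 and chr9:33054731-33054997.
Foxo6-side peak: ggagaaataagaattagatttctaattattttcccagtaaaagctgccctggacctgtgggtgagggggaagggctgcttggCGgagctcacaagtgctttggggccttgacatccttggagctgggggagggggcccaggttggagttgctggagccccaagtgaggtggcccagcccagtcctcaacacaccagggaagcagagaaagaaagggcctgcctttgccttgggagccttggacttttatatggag
Otp-side peak: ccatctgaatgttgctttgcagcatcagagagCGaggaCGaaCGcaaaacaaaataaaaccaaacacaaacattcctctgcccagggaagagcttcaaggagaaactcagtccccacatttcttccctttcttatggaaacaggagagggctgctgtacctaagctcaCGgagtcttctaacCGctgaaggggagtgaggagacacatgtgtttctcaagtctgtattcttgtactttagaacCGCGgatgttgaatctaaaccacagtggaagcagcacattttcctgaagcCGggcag
Rybp-side peak: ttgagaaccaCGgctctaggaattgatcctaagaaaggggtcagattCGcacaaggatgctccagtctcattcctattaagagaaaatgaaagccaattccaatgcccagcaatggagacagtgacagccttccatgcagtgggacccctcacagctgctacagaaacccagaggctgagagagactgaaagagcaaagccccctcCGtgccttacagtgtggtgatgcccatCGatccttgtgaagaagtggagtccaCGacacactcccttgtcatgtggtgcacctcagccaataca
Ets1-side peak: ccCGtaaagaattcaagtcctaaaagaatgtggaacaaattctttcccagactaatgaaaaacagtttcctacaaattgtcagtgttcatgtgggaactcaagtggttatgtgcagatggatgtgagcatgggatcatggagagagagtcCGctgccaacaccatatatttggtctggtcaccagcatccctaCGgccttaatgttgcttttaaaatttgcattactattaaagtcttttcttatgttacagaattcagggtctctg
The last was among the 10 intergenic peaks with the highest fold in NSC Bmi1Over and lay 35.4 kb from the nearest TSS of Foxd1, a forkhead transcription factor, at chr13:98391096-98391395.
Foxd1-side peak: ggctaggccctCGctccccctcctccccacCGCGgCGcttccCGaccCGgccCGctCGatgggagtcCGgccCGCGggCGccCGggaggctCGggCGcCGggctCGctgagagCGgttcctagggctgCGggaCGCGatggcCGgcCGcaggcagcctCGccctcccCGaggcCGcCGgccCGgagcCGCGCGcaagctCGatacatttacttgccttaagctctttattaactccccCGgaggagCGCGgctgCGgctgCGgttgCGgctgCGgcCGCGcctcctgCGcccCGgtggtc
The Foxd1 window held 43 CG dinucleotides, the Samd9l window 24, the Rab10 window 6 and the Dpy19l1 window 2. The 4 windows from the clusters held 1, 8, 5 and 3 in the order shown. The Foxd1 window is 300 of the 3224 bp of its peak. The whole peak had a GC content of 52.1% and a ratio of observed to expected CpG of 0.457.

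The peak lists do not hold the depth of the ChIPSeq libraries. The methods of the study give aligned read totals that differ widely between cultures, with the deepest NSC culture above both NSC Bmi1Over cultures, and say that the weakest were discarded, without naming the ones kept. Depth and genotype therefore cannot be told apart in any count or overlap of the lists, and with 1 library per genotype no difference between them was tested. Fold enrichment started at 3.52 among NSC peaks and at 4.03 among NSC Bmi1Over peaks, and 1530 of the 3172 intergenic peaks (48.2%) had a fold in NSC below the second of these. In RNASeq the gene counts summed to between 18112100 and 61353076 per library. Bmi1 stood at 133 and 123 CPM (counts scaled to a common library size) in NSC and at 119 and 112 in NSC Bmi1Over, a log2 fold change of -0.15 (SE 0.12, adjusted p = 0.463 in edgeR's quasi-likelihood test), so the RNA groups are called below by their labels. All 11 neural stem cell markers were at 1 CPM or more in each library, and the 3 erythroid and 4 mesenchymal markers summed to at most 1.07 CPM. The 4 microglia markers summed to 1.30 and 1.86 CPM in NSC and to 2.40 and 3.08 CPM in NSC Bmi1Over, and the 3 endothelial markers to 1.77 and 2.13 CPM and to 2.63 and 3.16 CPM. Both lists were higher in both NSC Bmi1Over libraries, with 1 marker of each tested and none called. The 5 astrocyte markers summed to 219 and 177 CPM in NSC and to 170 and 149 CPM in NSC Bmi1Over, and 1 of them, Aldh1l1, was lower in edgeR. Markers of neurons summed to 826 to 954 CPM and of oligodendrocyte lineage cells to 2060 to 2338 CPM over the 4 libraries, and the part of such cells in the results was not tested.

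The intergenic peaks were short and weak. Their median length was 360 bp (quartiles 248 and 593 bp), their median fold enrichment over background was 4.05 (quartiles 3.79 and 4.42) and their median −log10 q was 2.73. Together they covered 1744858 bp, against 4614065 bp in the 415 broad domains. Coding promoter peaks had a median length of 429 bp and a median fold of 4.17, and intragenic peaks 367 bp and 4.07. At the length limit, the longest peak inside the rule was 3951 bp with a fold of 6.76, and the shortest domain outside it that met the position rule was 4080 bp with a fold of 6.07. At the distance limit, the peak nearest to a TSS inside the rule was 1 bp past it with a fold of 4.13, and the farthest outside was 4995 bp from a TSS with a fold of 4.73.

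Chromosome 9 held 396 of the intergenic peaks, chromosome 2 held 358 and chromosome 16 only 39. Per megabase of sequence that met the position rule, this came to 7.60 peaks on chromosome 9, 4.84 on chromosome 19, 4.54 on chromosome 2 and 0.808 on chromosome 16, with 2.74 over all autosomes. When the same rule was applied to the NSC Bmi1Over list, chromosome 9 again had the highest density (3.24 per Mb) and chromosome 16 the lowest (0.228 per Mb).

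Few intergenic peaks had the base composition of CpG islands. The median GC content was 44.9% and the median ratio of observed to expected CpG was 0.173, close to the values of windows of the same length moved by 10 kb to either side that held no NSC peak (45.0% and 0.164 over 4633 windows). In those pairs of peak and window, the peak had the higher CpG ratio in 51.0%. Intragenic peaks had a median CpG ratio of 0.188, near that of intergenic peaks, coding promoter peaks of 0.301 and broad domains of 0.429. A GC content of at least 50% with a CpG ratio of at least 0.6 was found in 33 intergenic peaks (1.04%). The same held for 32 intragenic peaks (1.84%), 592 coding promoter peaks (17.96%) and 0.777% of the flanking windows. The longest of these 33 was a 2209 bp peak with a fold of 5.22, 7305 bp from a TSS of Ebf3, a transcription factor of differentiating neurons. The nearest genes of others included the homeobox genes Meis2, Nkx6-1, Barhl2, Nkx1-1 and Barx1 (69486 bp away) and Tbr1, a T-box factor of cortical neurons. They also included genes outside these families, such as Melk, Shq1, Gpatch2l, Slf2, Rbm19 and Crtc3, and the genes named here are a choice from the list. Of the 33, 4 were overlapped by an NSC Bmi1Over peak. At least 50% of the sequence was soft-masked as repeat in 401 intergenic peaks (12.6%) and in 20.6% of the flanking windows.

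Intergenic peaks gathered around broad domains. Of the 3172 peaks, 698 (22.0%) lay within 10 kb of a broad domain, and 1279 (40.3%) within 100 kb, although only 2.20% of the eligible sequence lay that close. The density fell from 233 peaks per Mb within 10 kb to 36.2 between 10 and 50 kb, 15.7 between 50 and 100 kb, 5.10 between 100 and 500 kb and 1.44 beyond 500 kb. This last band nevertheless held 1516 peaks (47.8%), since 91.4% of the eligible sequence was in it. Within 100 kb of a broad domain were also 21.8% of coding promoter peaks, 38.3% of intragenic peaks and 47.2% of peaks at noncoding TSSs.

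**Figure D1:**
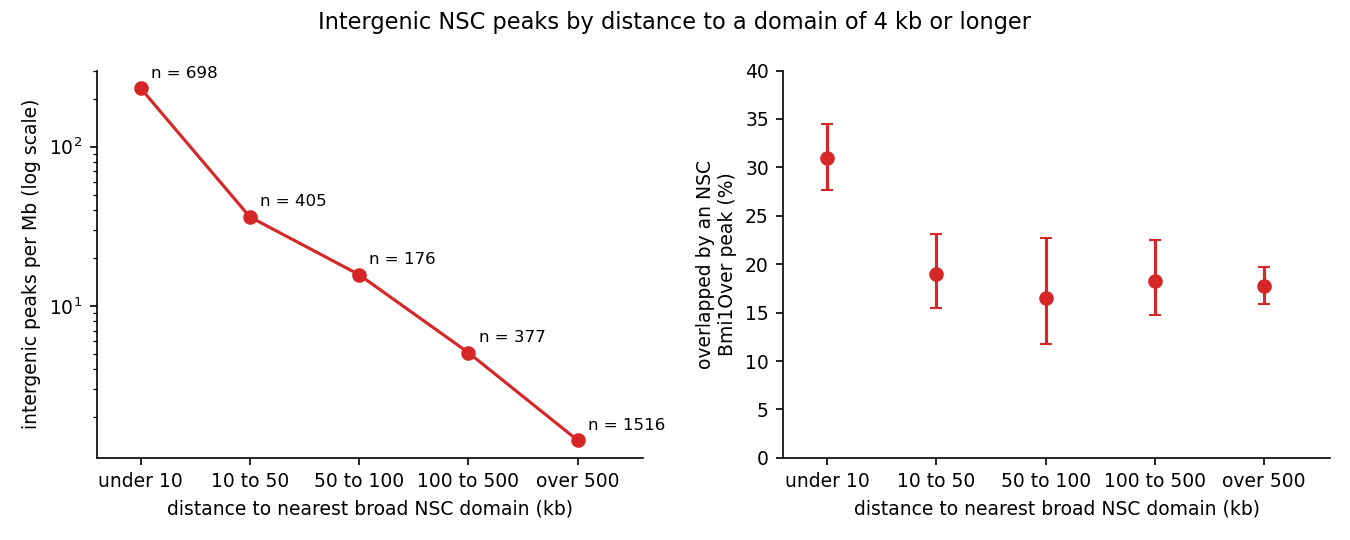
Intergenic NSC peaks by their distance to the nearest broad NSC domain in kb. Left, number of peaks per Mb of eligible sequence on a log scale, with the number of peaks beside each point, falling from 233 to 1.44 per Mb. Right, percent overlapped by an NSC Bmi1Over peak with 95% Wilson intervals (counting error only), 30.9% within 10 kb and 16.5% to 19.0% in the other bands.

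Most intergenic peaks also had another beside them. The nearest other intergenic peak was within 10 kb for 2637 of them (83.1%) and within 1 kb for 1883 (59.4%), with a median gap of 703 bp. When peaks less than 10 kb apart were linked, 1073 groups resulted, of which 535 were single peaks and 53 held 10 or more peaks. These 53 clusters contained 845 peaks (26.6%) and spanned a median of 22.6 kb, of which a median of 32.3% was inside peaks. A broad domain lay within 10 kb of 20 of the 53 clusters, and none lay within 500 kb of 21 of them. Single peaks had a median length of 284 bp and a median fold of 3.91, and peaks in the 53 clusters 417 bp and 4.11.

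The largest cluster held 46 peaks over 92.0 kb between Edn2, which encodes an endothelin peptide, and Foxo6, a forkhead factor of the nervous system (chr4:120169617-120261569). It filled most of the 99.7 kb between the genes, and the nearest broad domain was 2673 kb away. Fold enrichment ranged from 3.52 to 5.47 in NSC. Edn2 had no read in any of the 4 RNA libraries. Foxo6 was at 6.27 and 1.98 CPM in NSC and at 1.37 and 2.90 CPM in NSC Bmi1Over, and these ranges overlap (log2 fold change -0.88, SE 0.51, edgeR adjusted p = 0.319). Foxo6 was called with no filter on low counts (-0.90) and without NSC replicate 2 (-1.48), and its sign turned without NSC replicate 1 (0.18).

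The second cluster held 39 peaks over 57.4 kb beside Otp, a homeobox factor of the hypothalamus (chr13:94891230-94948586), and lay 428 bp from a broad domain. Otp had no read in any library, while Wdr41, on the other side, was at 34.1 and 33.5 CPM in NSC and at 28.8 and 26.5 CPM in NSC Bmi1Over (log2 fold change -0.29, SE 0.13, edgeR adjusted p = 0.198). The third and the fourth cluster, of 37 and 26 peaks, followed each other between Prok2 and Rybp (chr6:100029373-100137619 and chr6:100148974-100216235). Rybp encodes a subunit of PRC1 and was expressed in every library, at 18.6 and 21.1 CPM in NSC and at 19.7 and 16.5 CPM in NSC Bmi1Over. The fifth held 25 peaks between Ets1 and Kirrel3 (chr9:33053102-33102150), 357 to 405 kb from the nearest TSS of Ets1, an ETS transcription factor at 72.3 and 82.4 CPM in NSC and at 71.7 and 77.4 CPM in NSC Bmi1Over, with the nearest broad domain 501 kb away. Kirrel3, a cell adhesion molecule of the immunoglobulin family on the other side, was at 53.9 and 56.7 CPM in NSC and at 77.3 and 92.1 CPM in NSC Bmi1Over (log2 fold change 0.62, SE 0.13, edgeR adjusted p = 0.0537). In this cluster 23 of the 25 peaks overlapped a noncoding gene body. Rybp (log2 fold change -0.14, SE 0.15, edgeR adjusted p = 0.589) and Ets1 (-0.05, SE 0.13, edgeR adjusted p = 0.821) did not pass the test either.

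**Figure D2:**
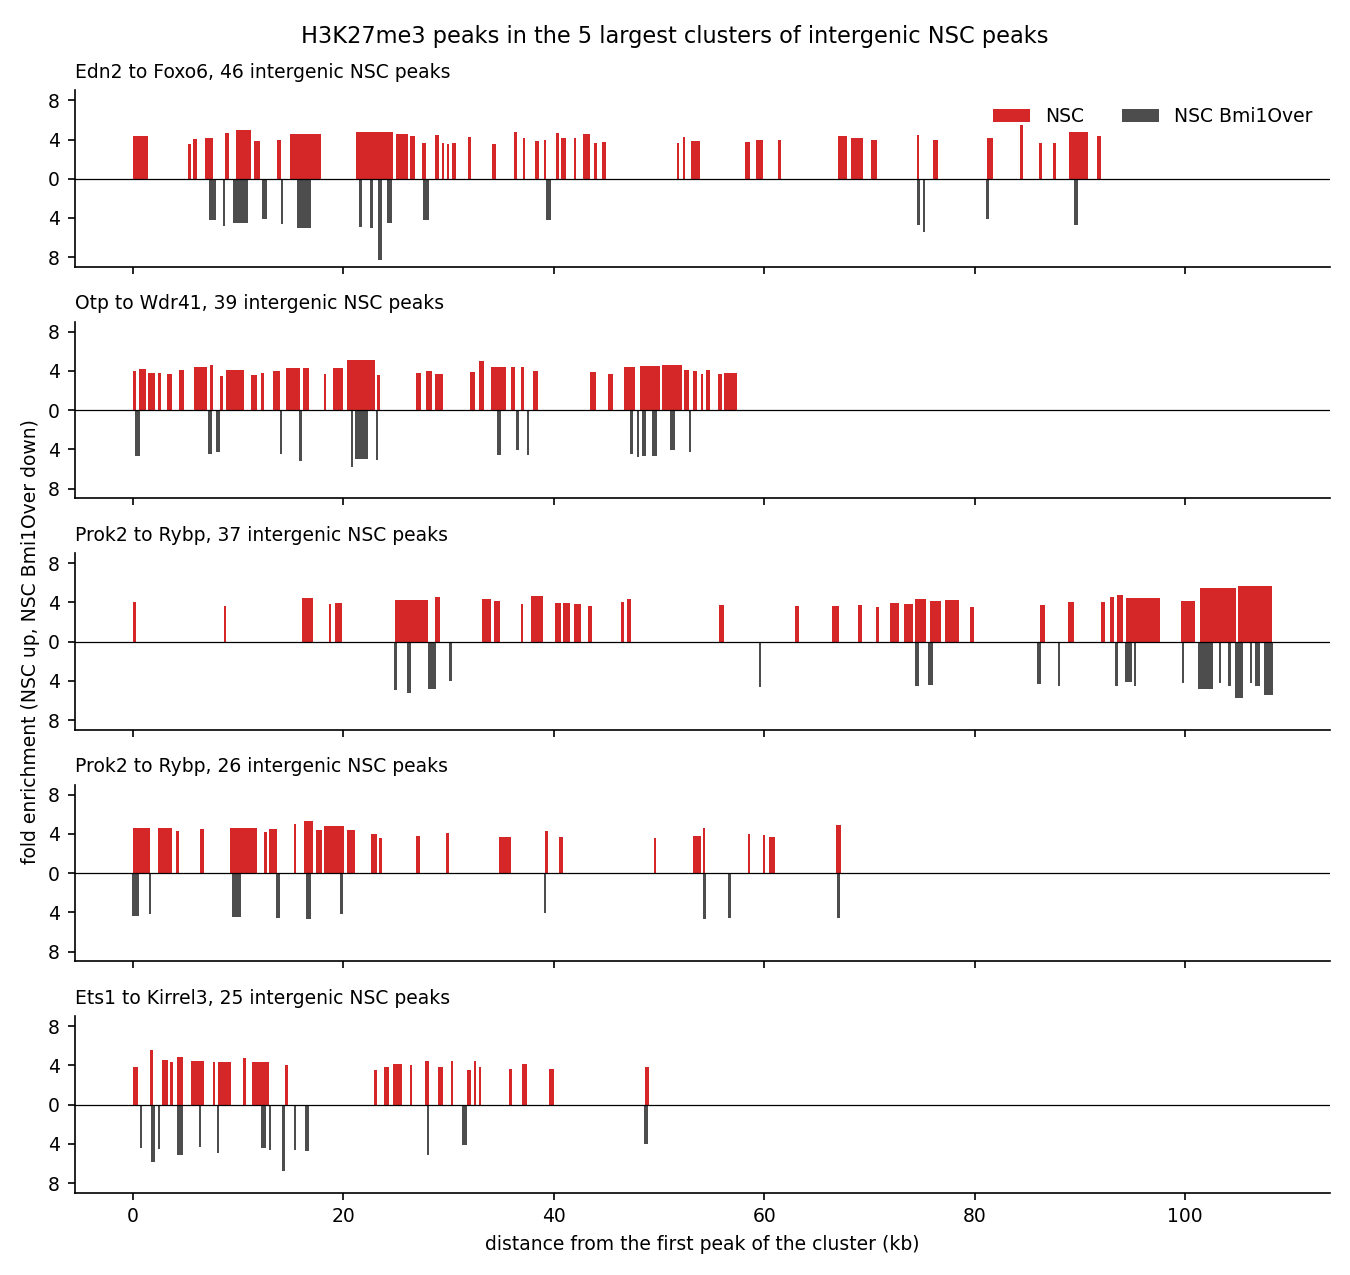
Peaks in the 5 largest clusters of intergenic NSC peaks, each row 1 cluster, named by the coding genes on either side. The x axis is the distance from the first peak of the cluster in kb and the y axis the fold enrichment, upward for NSC and downward for NSC Bmi1Over; bar width is peak length. NSC Bmi1Over had 16, 17, 20, 10 and 14 peaks from the top row down, where NSC had 46, 39, 37, 26 and 25.

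Over the same 5 clusters the NSC Bmi1Over list had 16, 17, 20, 10 and 14 peaks. Their summed length was 7.85, 6.37, 8.75, 4.11 and 4.27 kb, against 28.5, 27.8, 32.7, 17.4 and 12.1 kb in NSC. An NSC Bmi1Over peak overlapped 10, 12, 10, 8 and 7 of the intergenic NSC peaks. The median fold of the NSC Bmi1Over peaks in these clusters was 4.51 to 4.67, and of the NSC peaks 4.003 to 4.32.

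Between coding genes, 757 intervals held at least 1 intergenic peak and 72 held 10 or more, with 1395 peaks (44.0%) in those 72. The interval between Prok2, a secreted prokineticin, and Rybp held the most, 105 peaks over 401 kb. The interval between Tle3, a Groucho-type corepressor, and Rplp1, a ribosomal protein, held 82 over 478 kb with no broad domain within 200 kb. Tle3 was expressed at 40.05 and 39.96 CPM in NSC and at 36.8 and 37.2 CPM in NSC Bmi1Over (log2 fold change -0.11, SE 0.12, edgeR adjusted p = 0.575). The interval between Nufip1 and Tsc22d1 held 34 peaks, and that between Jam3 and Igsf9b 33 with no broad domain within 200 kb. Homeobox clusters were the neighbours in some other cases. There were 38 peaks between Calcoco1 and Hoxc13 and 27 between Hoxc4 and Smug1, on either side of domains of up to 142 kb, and 24 between Hoxd1 and Mtx2. Hoxc13 and Hoxc4 had no read in any library, while Calcoco1, Smug1 and Mtx2 were at 16.2 CPM or more in each. The imprinted genes Ndn, Magel2 and Mkrn3, side by side on chromosome 7, were the nearest genes of 32, 18 and 8 peaks, all within chr7:62215349-62409216. These intervals were chosen after their counts had been seen.

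The nearest coding gene, by TSS, was one of 810 genes, at a median distance of 34.8 kb (quartiles 14.1 and 92.5 kb, at most 1080 kb). For 340 of them it was a single peak, and 67 genes with 10 or more peaks accounted for 1262 peaks (39.8%). Rybp was the nearest gene of 80 peaks, Tle3 of 66, St8sia2 of 35, and Edn2 and Mtx2 of 33 each. The peak was upstream of the nearest TSS in 1766 cases (55.7%), and 418 peaks (13.2%) overlapped the body of a noncoding gene, although no TSS was within 5 kb.

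Lists of developmental regulators, chosen with earlier results of these data known, differed in how often their members were the nearest gene. Of 181 autosomal homeobox genes, 82 (45.3%) were the nearest gene of at least 1 intergenic peak, as were 16 of 41 forkhead genes (39.0%), 18 of 54 basic helix-loop-helix genes (33.3%) and 5 of 9 Pax genes (55.6%). The share was lower for T-box genes (4 of 16, 25%), for Wnt, Fgf, Bmp and Tgf ligands (10 of 70, 14.3%), for Sox genes (2 of 18, 11.1%), for Zic and Gli genes (1 of 10) and for nuclear receptors (3 of 47, 6.38%). Among all 20807 autosomal coding genes the share was 3.89%. For olfactory and vomeronasal receptor genes it was 0.481% (7 of 1454). It was 3.33% for cadherins and protocadherins (3 of 90) and 5.34% for potassium, sodium and calcium channels (7 of 131). None of 43 glutamate and GABA receptor genes and of 5 GATA genes was a nearest gene, but these lists are too small to be set against 3.89%. The homeobox genes stood mostly beside broad domains. Among the 258 genes nearest to a peak within 100 kb of a broad domain, 68 (26.4%) were homeobox genes, and among the other 552 there were 14 (2.54%).

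The nearest genes also often carried the mark themselves. An NSC peak of any class lay within 5 kb of a TSS of 351 of the 810 nearest genes (43.3%), and of 8.08% of all autosomal coding genes. This peak was by the rule never one of the intergenic peaks.

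The highest-fold intergenic peaks lay away from broad domains. A fold of 8 or more was reached by 14 peaks, of which none lay within 100 kb of a broad domain (the nearest at 220 kb). At least 50% of the sequence was repeat in 8 of the 14, and 4 lay within 500 kb of the first sequenced base of the chromosome, as did only 10 (0.315%) of all intergenic peaks. For 7 of the 14, blastn found at least 1 other autosomal stretch of 90% identity or more over at least 50% of the peak, with up to 113 such copies, and for none of the 10 longest intergenic peaks. The authors discarded reads that mapped to more than one place, and the part of repeated sequence in these folds was not tested.

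The highest fold, 28.4, was that of a peak of 1815 bp between the lymphocyte antigen genes Ly6c1 and Ly6c2 (chr15:75085377-75087191), where the NSC Bmi1Over fold was 17.7. The Rab10-side peak had 18.7 in NSC and 11.1 in NSC Bmi1Over, and lay 110 kb from the first sequenced base of chromosome 12 (chr12:3109717-3110257). The Dpy19l1-side peak had almost the same fold in both lists, 15.0 and 14.7 (chr9:24541914-24542289). The Samd9l-side peak, with 13.6 and 8.74 (chr6:3201308-3201684), matched ribosomal RNA. It was 96.5% identical over 370 bases to CT010467.1, a gene that GENCODE types as rRNA, and the window printed above shows its 24 CG dinucleotides. Only this 1 rRNA gene and the mitochondrial genome were searched, and no intergenic peak matched the latter. Among the genes nearest to the 10 highest-fold peaks, Rab10, Gdi2, Dpy19l1 and Polr3k were expressed at 45.5 CPM or more in every library, whereas Ly6c2 had no read. Of the 10 nearest genes, 7 were tested and none was called in edgeR (the lowest adjusted p was 0.0729, for Polr3k, with a log2 fold change of -0.47 and an SE of 0.12). Polr3k was called with a replicate block (-0.48), with scaling by library size (-0.62), with no filter on low counts (-0.50), without NSC Bmi1Over replicate 1 (-0.55) and by DESeq2 (-0.49). Dpy19l1 was called with the block (0.44). P4ha2, at -1.77 in the full fit, was called with no filter (-1.78). Its value was -0.72 without NSC replicate 1, -2.41 without NSC replicate 2, -1.05 without NSC Bmi1Over replicate 1 and -4.75 without NSC Bmi1Over replicate 2.

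The 10 longest intergenic peaks, of 3427 to 3951 bp, were all overlapped by NSC Bmi1Over peaks, and 7 of them lay within 10 kb of a broad domain. The longest was 72.4 kb from Nr2f2, an orphan nuclear receptor of the forebrain (chr7:70278937-70282887), with a fold of 6.76 in NSC and 4.97 in NSC Bmi1Over and a CpG ratio of 0.505. Others lay beside Nkx2-3, Nkx2-4 and Barhl2 (homeobox), Twist1 (basic helix-loop-helix) and Wt1 (a zinc finger factor), genes at 2.50 CPM or less in each library. Nr2f2 was at 5.86 and 4.51 CPM in NSC and at 12.9 and 6.03 CPM in NSC Bmi1Over (log2 fold change 0.83, SE 0.34, edgeR adjusted p = 0.189). The value was 0.21 without NSC Bmi1Over replicate 1 and 1.31 without replicate 2, where Nr2f2 was called, as it was with a replicate block (0.79) and with no filter on low counts (0.80). Nkx2-4 had a larger fitted change of 2.62 (SE 0.62, edgeR adjusted p = 0.0642), which ranged from 2.02 to 4.18 when 1 library was left out and was called without NSC replicate 1 (4.18), with a replicate block (2.83) and with no filter (2.62). The other 3 of the 10 were 2500 kb or more from a broad domain, beside Igsf9b, A230072I06Rik and Edn2. A230072I06Rik and Edn2 had no read in any library. Igsf9b was at 63.7 and 95.6 CPM in NSC and at 83.4 and 152 CPM in NSC Bmi1Over (log2 fold change 0.57, SE 0.28, edgeR adjusted p = 0.248). Its value ranged from 0.07 to 0.93 when 1 library was left out. It was called with a replicate block (0.53) and with no filter on low counts (0.55).

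An NSC Bmi1Over peak overlapped 660 of the 3172 intergenic peaks by at least 1 bp (20.8%, Wilson 95% interval 19.4% to 22.3%, which covers counting error only). Over all autosomal NSC peaks the share was 25.9%, and over those under the length limit 22.5%. It was 23.5% for coding promoter peaks, 22.6% for intragenic peaks and 100% for broad domains. The part of the ChIPSeq depth in these shares was not tested. The share followed the strength of the NSC peak. It was 8.26% of 1465 intergenic peaks with a fold under 4, 23.0% between 4 and 4.5, 40.4% between 4.5 and 5, 47.0% between 5 and 6, and 83.3% of 24 peaks between 6 and 8. By length, it was 6.87% under 250 bp, 27.03% between 500 and 1000 bp and 92.3% of 104 peaks of 2000 bp or longer. Coding promoter peaks of the same length bands were overlapped in 5.10%, 24.8% and 86.5%.

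**Figure D3:**
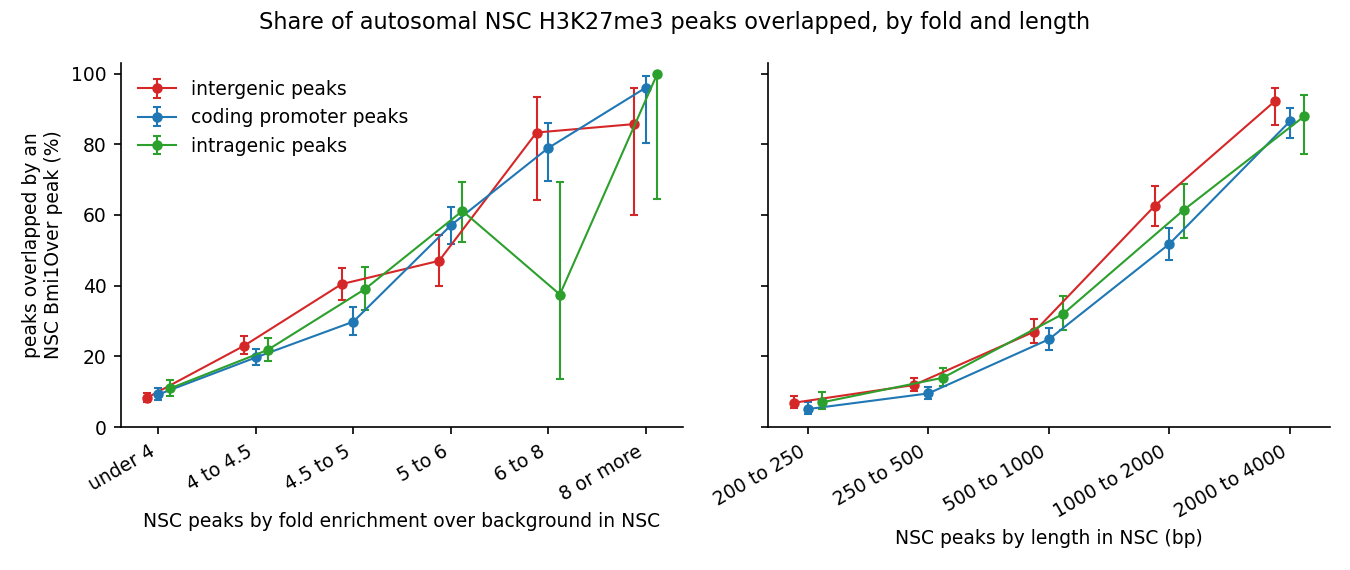
Percent of autosomal NSC peaks overlapped by an NSC Bmi1Over peak, by fold enrichment in NSC (left) and by length in bp (right), for intergenic, coding promoter and intragenic peaks. Points are shares of peaks and bars 95% Wilson intervals (counting error only). The share was 8.26% to 10.9% in the lowest fold band of the 3 classes and 85.7% to 100% in the highest.

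Near broad domains the share was higher, 30.9% of the 698 peaks within 10 kb against 16.5% to 19.0% in the bands farther out, and peaks there were also longer. Within bands of length, the difference was 20.5% against 9.62% for peaks of 250 to 500 bp and 30.2% against 25.8% for those of 500 to 1000 bp. Single peaks were overlapped in 9.72% of cases and peaks in clusters of 10 or more, which were longer, in 28.2%. Within bands of length these shares were 4.09% and 11.7% under 250 bp, and 5.13% and 17.4% at 250 to 500 bp. They were 24.1% and 27.2% at 500 to 1000 bp, 61.1% and 64.8% at 1000 to 2000 bp, and 77.8% (of 9 peaks) and 97.4% above that. A call of overlap rarely meant full coverage, since a median of 40.1% of the bases of an overlapped peak were inside NSC Bmi1Over peaks and 31 of the 660 were covered whole. When 1 NSC Bmi1Over peak alone had to cover at least 50% of the NSC peak, the share fell to 6.43%. With NSC Bmi1Over peaks extended by 1 kb it rose to 40.04%. Of the 2512 peaks without an overlap, 610 (24.3%) had an NSC Bmi1Over peak within 1 kb and 379 (15.1%) had none within 100 kb.

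Where both lists had a peak, the median fold was 4.44 in NSC and 4.72 in NSC Bmi1Over. For NSC Bmi1Over the highest fold was taken where several peaks overlapped, as for 113 intergenic peaks with 2 or more. Across the 660 overlapped peaks, the folds had a Spearman correlation of 0.263. Pearson's r on log2 folds was 0.623 and fell to 0.303 over the 648 peaks with an NSC fold under 8. The peaks share their 2 libraries and the lists are cut at different minimum folds (3.52 in NSC and 4.03 in NSC Bmi1Over). The medians and correlations are therefore descriptions.

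**Figure D4:**
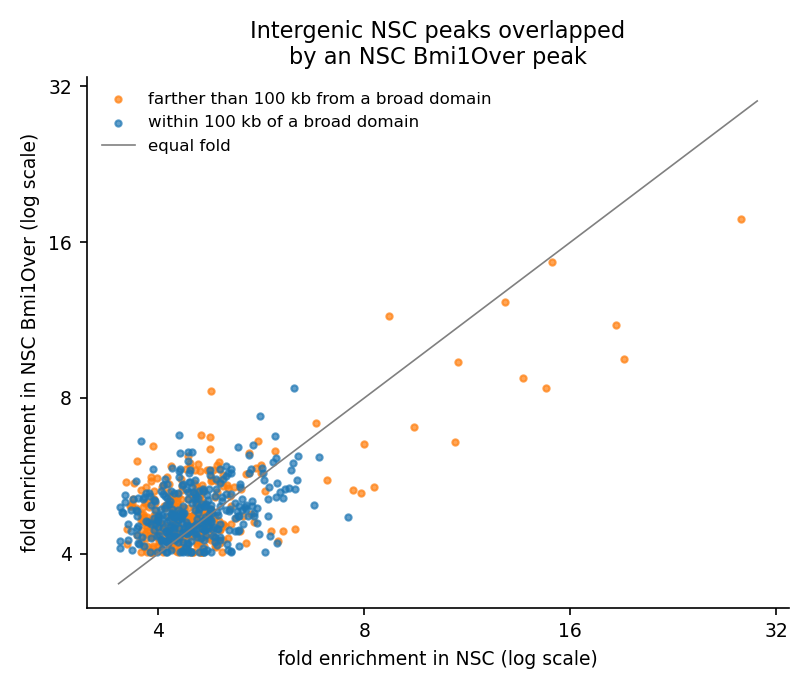
Fold enrichment in NSC (x axis) and the highest fold of an overlapping NSC Bmi1Over peak (y axis), both on log scales, for the 660 overlapped intergenic peaks. Colours give the distance to a broad domain, within or beyond 100 kb, and the line marks equal fold. All peaks with an NSC fold of 8 or more are farther than 100 kb from a broad domain, and the median is 4.44 in NSC and 4.72 in NSC Bmi1Over.

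In the NSC Bmi1Over list, 1677 autosomal peaks met the same rule. An NSC peak of any class overlapped 1316 of them (78.5%), an intergenic NSC peak 784 (46.8%) and a broad NSC domain 510 (30.4%). The 361 peaks (21.5%) without an NSC peak had a median length of 233 bp, a maximum of 675 bp and a median fold of 4.52.

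Genes nearest to intergenic peaks were not silent as a group. Levels between genes are given as RPKM, the CPM divided by the length of the exons in kilobases. The median RPKM of the nearest genes was 0.904 and 0.876 in NSC and 1.06 and 1.01 in NSC Bmi1Over, and of the other autosomal coding genes 1.09, 1.06, 1.12 and 1.19 in the same order. At least 1 RPKM was reached by 48.3% to 50.2% of the nearest genes and by 50.4% to 51.2% of the others, depending on the library. As among other coding genes, levels differed with the state of the gene's own promoter. The 351 with an NSC promoter peak had a median of 0.0525 to 0.0728 RPKM over the 4 libraries, and the 457 counted genes without one had 3.81 to 4.25 RPKM, so that the medians of these 2 sets did not overlap in any library. Among the other autosomal coding genes the medians were 0.0902 to 0.124 RPKM with an NSC promoter peak and 1.48 to 1.60 RPKM without.

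Of the 808 nearest genes in the count table, 534 passed the filter on low counts and were tested. The libraries labelled NSC Bmi1Over were higher for 21 (3.93%) and lower for 2 (0.375%) at an adjusted p under 0.05, where the shares over all 15521 genes tested were 2.03% and 0.122%. The median log2 fold change of the nearest genes was -0.02, and of all genes tested -0.01. The count moved with the libraries used. Leaving out a library left 1 in its group, which was assumed to vary like the other group, so the spread in these fits came from 2 libraries alone. Without NSC replicate 1, 15 nearest genes were called (2.79%, against 1.11% of all genes tested). Without NSC replicate 2 there were 73 (13.3% against 8.93%), and without NSC Bmi1Over replicate 1 there were 92 (16.8% against 15.6%). Without NSC Bmi1Over replicate 2 there were 21 (3.88% against 1.45%), of which 9 were among the 23. With a replicate block, 146 were called (27.3%, against 22.3% of all genes tested). The balance of higher and lower nearest genes moved too. It was 15 and 0 without NSC replicate 1, 59 and 14 without NSC replicate 2, 74 and 18 without NSC Bmi1Over replicate 1, 15 and 6 without NSC Bmi1Over replicate 2, 85 and 22 with no filter on low counts, 61 and 10 by DESeq2, 19 and 0 with DESeq2's size factors and 23 and 8 with scaling by library size, and with the block 45 of the 146 were lower.

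**Figure D5:**
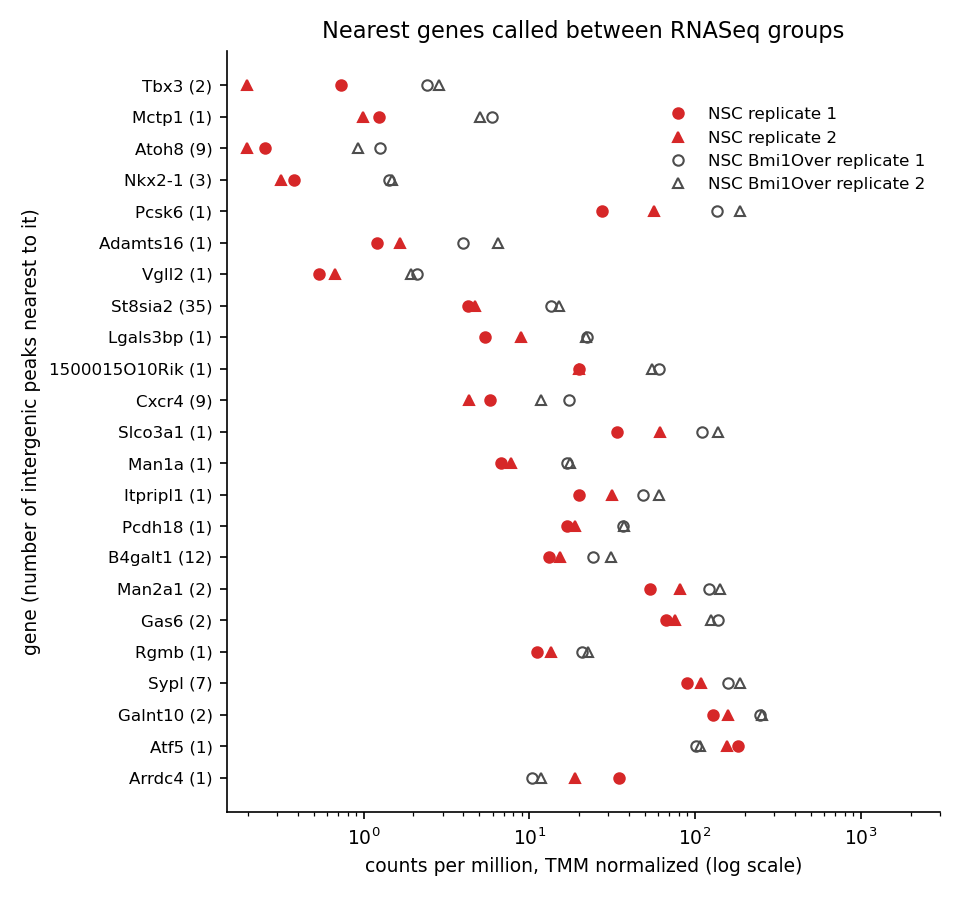
CPM (log scale) in the 4 RNA libraries for the 23 nearest genes called by edgeR, ordered by log2 fold change, with the number of intergenic peaks nearest to each gene in brackets. Each point is 1 culture. In the 21 upper genes both NSC Bmi1Over cultures were above both NSC cultures, and in Atf5 and Arrdc4 both were below.

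Among the called nearest genes, the largest fitted increase was in Tbx3, a T-box repressor, at 0.728 and 0.198 CPM in NSC and at 2.40 and 2.85 CPM in NSC Bmi1Over (log2 fold change 2.45, SE 0.46, edgeR adjusted p = 0.0414). Its 2 intergenic peaks lay 5.19 and 7.29 kb from the TSS and 1 of them was overlapped in NSC Bmi1Over. Nkx2-1, a homeobox factor of the ventral forebrain, rose from 0.380 and 0.316 CPM to 1.43 and 1.49 CPM (log2 fold change 2.05, SE 0.36, edgeR adjusted p = 0.0374), with 3 peaks at 74.8 to 93.2 kb, none of them overlapped. Atoh8, a basic helix-loop-helix factor with 9 peaks, rose from 0.253 and 0.198 CPM to 1.26 and 0.927 CPM (log2 fold change 2.19, SE 0.43, edgeR adjusted p = 0.0450). These 3 genes were under 3 CPM in every library. The log2 fold change of Tbx3 was 3.72 without NSC replicate 1 and 1.85 without NSC replicate 2, where it was below those of Pcsk6 (2.55), Adamts16, Mctp1 (both 2.14), Atoh8 (2.04) and Nkx2-1 (1.93). Tbx3 lost its call without NSC Bmi1Over replicate 2 (2.2997). Nkx2-1 and Atoh8 lost theirs without NSC replicate 1 (2.19 and 2.40) and without NSC Bmi1Over replicate 2 (2.01 and 2.44), with folds close to those of the full fit.

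St8sia2, which adds polysialic acid to the neural cell adhesion molecule, was the called gene with the most intergenic peaks. Its 35 peaks lay 6.003 to 117 kb from the TSS, 7 were overlapped in NSC Bmi1Over, and the nearest broad domain was 3528 kb away. It rose from 4.27 and 4.70 CPM in NSC to 13.5 and 15.1 CPM in NSC Bmi1Over (log2 fold change 1.68, SE 0.19, edgeR adjusted p = 0.00792). B4galt1, a galactosyltransferase with 12 peaks, rose from 13.1 and 15.3 CPM to 24.3 and 31.3 CPM. Cxcr4, the receptor of the chemokine Cxcl12, had 9 peaks and rose from 5.76 and 4.35 CPM to 17.4 and 11.8 CPM. B4galt1 and Cxcr4 were chosen for their number of peaks after their values had been seen.

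Another 3 genes with large changes had 1 peak each. Mctp1, a calcium-binding membrane protein, rose from 1.23 and 0.988 CPM to 5.99 and 5.03 CPM (log2 fold change 2.29, SE 0.27, edgeR adjusted p = 0.0107). Pcsk6, a proprotein convertase, rose from 27.4 and 56.6 CPM to 136 and 187 CPM (log2 fold change 1.95, SE 0.30, edgeR adjusted p = 0.0290). Adamts16, a secreted metalloprotease 530 kb from its peak, rose from 1.20 and 1.66 CPM to 3.995 and 6.50 CPM (log2 fold change 1.91, SE 0.32, edgeR adjusted p = 0.0370) and lost its call without NSC Bmi1Over replicate 2. The 2 genes that fell were Atf5, a stress-response transcription factor, from 181 and 155 CPM to 102 and 108 CPM (log2 fold change -0.68, SE 0.13, edgeR adjusted p = 0.0451), and Arrdc4, an arrestin-domain protein, from 34.7 and 18.9 CPM to 10.4 and 11.8 CPM (log2 fold change -1.27, SE 0.26, edgeR adjusted p = 0.0494). Both lost their call without NSC replicate 1 (-0.57 for Atf5 and -0.76 for Arrdc4) and without NSC Bmi1Over replicate 2 (-0.73 and -1.37). With DESeq2's size factors they lost it too, at -0.68 and -1.26. Arrdc4 also lost it with a filter of 1 CPM (-1.25) and with protein-coding genes only (-1.26).

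Over all genes tested 2.03% were higher and 0.122% lower, and the lists are too small for their counts of called genes to be read against these shares. Of the homeobox genes nearest to intergenic peaks, 25 of 82 passed the filter and 1 of them, Nkx2-1, was called. The other called genes of the lists were Tbx3 among 1 tested T-box gene, Atoh8 among 7 tested basic helix-loop-helix genes and Pcdh18 among 2 tested cadherins and protocadherins. None of the 6 tested forkhead genes nearest to intergenic peaks was called. In the whole lists, none of 11 PRC2 genes, 19 PRC1 genes and the H3K27 demethylase Kdm6b on an autosome was called in either direction. Among the 67 genes nearest to 10 or more peaks, 40 were tested, 2 were higher (St8sia2 and B4galt1) and none was lower.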

How the data were processed

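H3K27me3 ChIPSeq and RNASeq were done on primary NSC cultures. Per the labels and the methods of the study, the authors aligned ChIPSeq reads to mm10 with Bowtie2 2.3.4, allowed up to 1 mismatch, discarded multi-mapped reads and called broad peaks with MACS2. The input used for calling is not given in the sources used here. The deposited peak lists give each peak's position, its fold enrichment as a ratio over background and its q value as −log10, and the deposited score column was not used. The authors' deposited RNA tables, made with STAR, hold raw read counts per gene. Their unstranded column was used, so overlapping antisense genes cannot be told apart. Their 4 rows that name no gene (27.8% to 34.1% of a table) were left out.

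Peaks were classed against GENCODE vM21 on GRCm38.p6 (python 3.11.15, pysam 0.24.0), and the code was checked against bedtools 2.31.1. Overlap meant at least 1 bp. Other copies were searched with blastn 2.17.0. Counts were filtered with filterByExpr, scaled by TMM and tested with edgeR 4.0.16 (R 4.3.3) by its quasi-likelihood test over all genes, with Benjamini-Hochberg adjustment and a threshold of 0.05. SEs were derived from the F statistic, and RPKM from CPM and exon length. The RNA code was tested on simulated data. With 2 cultures per group an exact permutation test cannot go below p = 0.333, and p-values measure the spread between these cultures. Wilson intervals at 95% cover counting error only.

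The members and gene lists were chosen with earlier results of these data known. Genes were named as nearest to the 10 highest-fold peaks, the 10 longest, the 5 largest clusters, the 10 with the highest fold in NSC Bmi1Over, as the 5 with the most peaks, and as the 6 called genes with the largest change in each direction. Alternatives were other peak thresholds, distances, gene models, normalizations and filters, a replicate block, DESeq2 1.42.0 and leaving out each RNA library. The limit of fold under 8 was chosen after seeing the data. One of the highest-fold peaks is not reported here.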

Additional observations from a re-analysis of the deposited data

Results flagged for a closer look

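The X chromosome was outside the rule and held 3454 NSC peaks, of which 1402 met the same limits of position and length. This signal was singled out because it lies in data that no comparison above used. Their median length was 282 bp and their median fold 3.88. An NSC Bmi1Over peak overlapped 86 of them (6.13%), and the NSC Bmi1Over list had 392 X peaks that met the limits. The sex of the cultures was not given in the sources used here, and its part in these values was not tested.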

How the results depend on the processing

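With a minimum fold of 5, 223 intergenic peaks were left, of which 53.4% were overlapped, 33.6% were within 10 kb of another and 53.4% within 100 kb of a broad domain. Of their nearest genes 57.6% had a promoter peak and 3 of 88 tested were called (3.41%, against 2.15% of all genes), and the median CpG ratio was 0.215. With a −log10 q of at least 3, these values were 1225 peaks, 37.1%, 72.7%, 44.3%, 50%, 14 of 297 genes (4.71%) and 0.183. With a length of at least 500 bp they were 1043 peaks, 42.9%, 78.6%, 47.2%, 53.7%, 8 of 225 genes (3.56%) and 0.184. More than 10 kb from every TSS, 36.5% were within 100 kb of a broad domain and 38.5% of nearest genes had a promoter peak. The overlap was 6.43% when 1 NSC Bmi1Over peak alone had to cover at least 50% of the NSC peak. It was 6.81% for NSC Bmi1Over peaks with a fold of at least 5, and 40.04% with peaks extended by 1 kb. With links of 5 and 50 kb, 79.6% and 88.9% had a neighbour, 34.8% lay within 50 kb of a broad domain, and 36.5% of nearest genes had a peak within 1 kb of a TSS. With the other alternatives, those with fold under 8 (chosen after seeing the data) among them, the number of peaks was 2300 to 3244, and 16 to 31 nearest genes were called where no other value is given.

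The 23 nearest genes called (4.31% of those tested, against 2.15% of all genes) became 107 with no filter on low counts (15.4% against 8.25%), 71 with DESeq2's Wald test (13.9% against 10.1%) and 15 to 92 when 1 library was left out. With a replicate block 146 were called (27.3% against 22.3%). The replicate numbers are only shared labels of 2 cultures a group, with a correlation of deviations of 0.17. Scaling by library size alone shifted the centre of the log2 fold changes over all genes to a median of -0.17 and gave 23 higher and 8 lower nearest genes. For 27 named genes, 251 values kept direction and side of the threshold, 21 passed it, 14 lost it and 5 changed sign. Those 5 came from leaving out 1 library, over which the log2 fold change ranged from -0.15 to 0.040 for Ets1, -1.61 to 0.18 for Foxo6, -0.42 to 0.24 for Kcnh5 (0.05 without NSC replicate 2) and -1.49 to 0.70 for Twist1. The causes were not tested. The peak lists hold no depth, and 1 ChIPSeq library per genotype gives no replicate error.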
